A study of Mus musculus with 24 samples.

Results

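A set of 9 measured genes of bone morphogenetic protein (BMP) and SMAD signalling were followed through lipopolysaccharide (LPS) lung injury in mice with and without Rag-1. The set was named as 10 genes, the ligands Bmp4 and Bmp6, the receptors Bmpr2 and Acvrl1, the inhibitory SMADs Smad6 and Smad7, and the responsive genes Id1, Id2, Id3 and Tmem100. Every beadchip probe whose annotated symbol was one of them was taken, which gave 9 probes, 1 for each gene except Smad7, for which no probe carries the name in the annotation used here and which is not analysed here. All 9 passed the detection filter, among 13544 probes tested of 24046 on the array.

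Total RNA from whole lung of male C57BL/6 mice aged 6-8 weeks was hybridised to 24 arrays, 3 in each of 8 groups. The groups were Rag-1 null lung and wild type lung, each as untreated control and at 1, 4 and 10 days after LPS, a bacterial endotoxin that inflames the lung. Mice without Rag-1 cannot rearrange antigen receptors and have no mature T or B cells, while their other leukocytes remain. The sources used here give neither route nor dose of LPS, and the labels do not say whether the 3 samples of a group came from separate animals, and the spread behind the p-values may therefore be technical.

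BMPs are secreted ligands that bring a type II receptor such as Bmpr2 together with a type I receptor such as Acvrl1, also called ALK1, on the cell surface. The active receptor phosphorylates SMADs of the BMP branch, which enter the nucleus with Smad4 and switch on genes such as Id1, Id2 and Id3, and the inhibitory Smad6, which feeds back on the receptor. In the lung the pathway is best known in endothelium: inherited mutations of BMPR2 cause pulmonary arterial hypertension and those of ACVRL1 cause hereditary haemorrhagic telangiectasia in people.

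The course of Bmp6 and Smad6 after LPS differed between the genotypes, and in both genotypes Id2 rose and Id3 fell at day 4. Promoters are shown for these 4 genes. They are RefSeq sequences of build GRCm38.p6, from 250 bases before to 50 bases after the start site, written 5′ to 3′ on the strand of the gene. They lie at chr13:38345466-38345765 (plus strand, Bmp6), chr9:64022010-64022309 (minus strand, Smad6), chr12:25096043-25096342 (minus strand, Id2) and chr4:136143572-136143871 (plus strand, Id3). Of the 10 genes, 6 had an entry in the promoter table. Capitals mark 2 motifs searched on both strands, GGCGCC, a GC-rich SMAD motif, and GTCT with its complement AGAC, the core of the SMAD-binding element.
Bmp6: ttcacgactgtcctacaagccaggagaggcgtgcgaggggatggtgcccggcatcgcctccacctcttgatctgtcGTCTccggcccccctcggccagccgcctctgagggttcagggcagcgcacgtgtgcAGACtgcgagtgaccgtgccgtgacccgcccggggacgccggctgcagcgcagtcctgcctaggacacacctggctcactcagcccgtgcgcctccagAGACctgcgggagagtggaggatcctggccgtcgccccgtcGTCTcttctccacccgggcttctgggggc
Smad6: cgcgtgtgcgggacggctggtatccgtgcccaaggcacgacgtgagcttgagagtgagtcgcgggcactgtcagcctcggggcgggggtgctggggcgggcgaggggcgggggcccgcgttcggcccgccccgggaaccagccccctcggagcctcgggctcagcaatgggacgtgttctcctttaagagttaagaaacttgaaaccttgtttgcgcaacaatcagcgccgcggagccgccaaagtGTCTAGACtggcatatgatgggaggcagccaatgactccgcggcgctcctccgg
Id2: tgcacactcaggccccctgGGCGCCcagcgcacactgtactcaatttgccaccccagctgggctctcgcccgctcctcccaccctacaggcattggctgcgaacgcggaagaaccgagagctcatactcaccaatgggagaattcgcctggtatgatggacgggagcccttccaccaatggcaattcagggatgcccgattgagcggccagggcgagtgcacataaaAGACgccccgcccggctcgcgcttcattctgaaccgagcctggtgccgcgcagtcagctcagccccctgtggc
Id3: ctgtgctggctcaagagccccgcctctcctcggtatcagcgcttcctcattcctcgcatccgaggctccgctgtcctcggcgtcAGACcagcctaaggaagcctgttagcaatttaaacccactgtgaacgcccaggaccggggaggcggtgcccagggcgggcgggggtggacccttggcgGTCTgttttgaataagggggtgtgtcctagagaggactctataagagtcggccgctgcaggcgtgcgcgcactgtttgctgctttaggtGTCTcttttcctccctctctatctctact
The Id2 promoter held GGCGCC once, 231 bases upstream of the start site, and the other 3 printed promoters did not hold these letters. Among the promoters not printed, that of Bmpr2 also held it once, 105 bases upstream of the start site, and that of Bmp4 did not. Bmpr2 did not differ from control past the threshold on any day after LPS. Of 32851 mouse promoters of the same length, 11.9% held GGCGCC and 88% held GTCT on either strand, so the short motif separates few genes. In Smad6 both GTCT matches touch each other as the palindrome GTCTAGAC, which 70 of the 32851 promoters held (0.213%). In Smad6 it begins 4 bases upstream of the start site used here and runs across it. That start site, and the palindrome with it, lies inside the annotated Smad6 gene, whose 5′ end is at chr9:64022085. The palindrome was looked for after the sequences had been seen, and a match is a description, not a site or a cause.

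Levels are on a log2 scale of background-corrected, quantile-normalised bead signals. Values written after a level as a difference are log2 fold changes ± standard error (n = 3 arrays a group) with adjusted p-values from limma, after Benjamini-Hochberg correction over all 13544 probes tested, and a probe passed at an adjusted p under 0.05. Between 9517 and 12125 probes an array lay above background, and precision is limited by 3 arrays a group. Replicates correlated across probes at 0.966 to 0.992 in 7 groups, and at 0.858 to 0.969 in wild type lung at day 1, where replicate 1 stood apart, and values without it are given below for the calls of the 9 genes that involve that group. For 22 of the 24 arrays the title line in the deposited scanner file disagreed with the authors' table of processed values. Arrays were assigned through that table, which holds 1 column for every sample. The probe for Rag1 itself was close to background whatever the genotype and checked nothing, but Cd3e, Cd3d, Cd79b and Fcmr, of T and B cells, gave a higher signal on each of the 12 wild type arrays than on any Rag-1 null array. The surfactant gene Sftpc, the club cell gene Scgb1a1 and the endothelial Pecam1 and Cdh5 were detected on 24 of 24 arrays. Each slide held 1 array of every group at the same position, which cannot be told apart from the group.

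Most of the 9 genes had fallen at day 4 after LPS in both genotypes, while Id2 had risen. At day 10 Bmp6, Acvrl1, Smad6, Tmem100 and Id1 were below control in Rag-1 null lung. In wild type lung none of the 9 was below control past the threshold by then. The difference in response between the genotypes at day 10 passed for Bmp6, Tmem100 and, near the threshold, Smad6. It did not pass for Acvrl1 (limma, adjusted p = 0.0758) or for Id1. The F test in limma over the days together gave an adjusted p of 0.954 for Id1. In Rag-1 null lung 4 of the 9 genes fell and 0 rose at day 1 (9.13% of all probes tested fell and 7.75% rose), 7 fell and 1 rose at day 4 (15.4% fell and 11.9% rose), and 5 fell and 0 rose at day 10 (4.24% fell and 4.64% rose). The wild type counts were 4 fallen and 1 risen at day 1 (21.2% of all probes fell and 18.1% rose), 7 fell and 1 rose at day 4 (12.6% fell and 10.7% rose), and 1 rose and 0 fell at day 10 (0.945% rose and 1.11% fell). At day 10 the median difference of the 9 genes from control was -0.70 in Rag-1 null lung, beside -0.01 for all probes tested, and -0.08 in wild type lung, beside 0.01 for all probes. Whole lung was measured, so fewer cells of a type and less RNA per cell cannot be told apart.

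**Figure D1:**
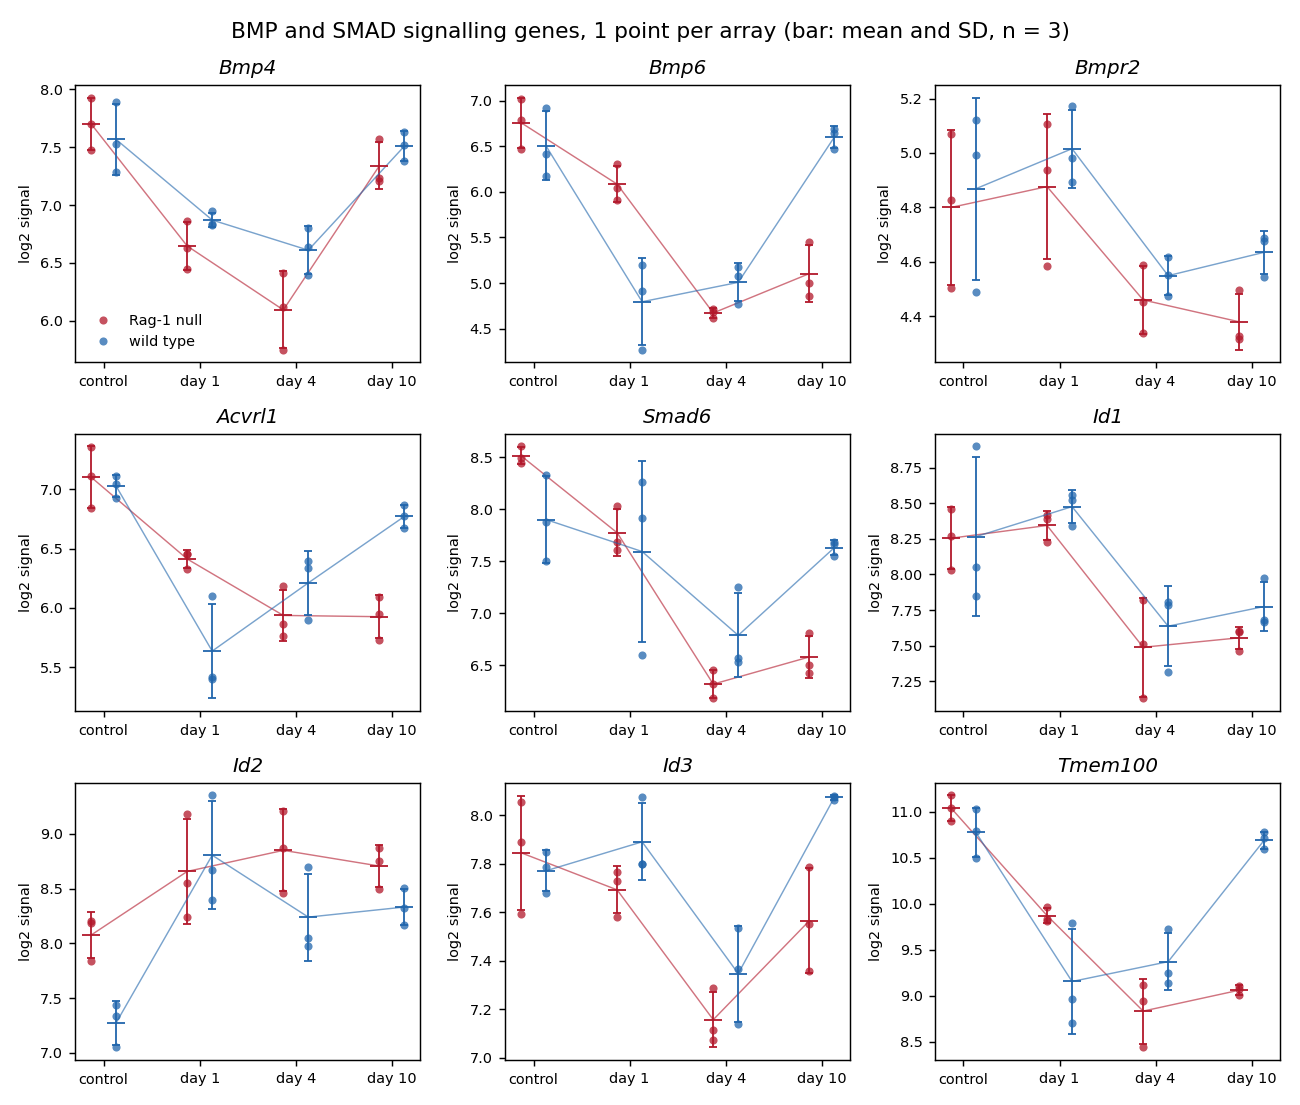
Level of the 9 measured genes on every array (y axis, normalised log2 signal), 1 panel a gene, by condition (x axis, control then day 1, 4 and 10 after LPS) in Rag-1 null and wild type lung. Points are arrays, bars give the mean and SD of 3 arrays, and lines join the group means. Bmp6, Smad6, Tmem100 and Acvrl1 return to near control in wild type lung at day 10 and remain low in Rag-1 null lung.

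Bmp6, a ligand of the BMP branch known in the liver for inducing the iron hormone hepcidin, fell at both early days in both genotypes, and at day 10 it was still low in Rag-1 null lung while wild type lung had returned to near control. Its Rag-1 null level was 6.47, 7.02 and 6.78 in controls, 5.91, 6.05 and 6.30 at day 1, 4.61, 4.69 and 4.72 at day 4, and 4.85, 5.01 and 5.45 at day 10. The wild type levels were 6.17, 6.92 and 6.42 in controls, 4.92, 4.27 and 5.20 at day 1, 5.17, 5.08 and 4.77 at day 4, and 6.69, 6.64 and 6.47 at day 10. All LPS arrays lay below all controls of their genotype except those of wild type lung at day 10, which lay among the controls. Against its controls, Bmp6 in Rag-1 null lung changed by -0.67 ± 0.22 at day 1 (adjusted p = 0.0391), -2.08 ± 0.22 at day 4 (adjusted p = 2.74e-07) and -1.65 ± 0.22 at day 10 (adjusted p = 3.01e-05). The call at day 1 did not hold without day 1 replicate 1 or 2 or control replicate 2 or 3 (adjusted p = 0.137, 0.113, 0.178 and 0.1). Bmp6 in wild type lung changed by -1.71 ± 0.22 at day 1 (adjusted p = 2.47e-06) and by -1.495 ± 0.22 at day 4 (adjusted p = 4.38e-05). At day 10 the wild type difference was 0.10 ± 0.22, with a 95% interval of -0.36 to 0.56 (adjusted p = 0.895). The probe was not above background on 1 of 3 arrays in Rag-1 null lung at day 4 and in wild type lung at day 1, the 2 lowest groups, and these falls run into the floor of the array.

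Set against wild type, Bmp6 in Rag-1 null lung was 1.29 ± 0.22 higher at day 1 (adjusted p = 2e-04) and lower at day 10, by a difference of -1.496 ± 0.22 (adjusted p = 0.000214), and the genotypes did not overlap on either day. At day 4 the difference was -0.34 ± 0.22 (adjusted p = 0.727) and in controls 0.25 ± 0.22 (adjusted p = 0.722), neither past the threshold. The LPS response itself differed between genotypes by 1.03 ± 0.31 at day 1 (adjusted p = 0.0444) and by -1.75 ± 0.31 at day 10 (adjusted p = 0.00712). The day 1 difference in response is a weak call: it was lost when any of 16 of the 24 arrays was left out in turn, with adjusted p from 0.0183 to 0.133 over the 24 fits. The day 10 difference kept its direction on each slide, at -2.13, -1.74 and -1.38.

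Bmp4, a ligand that patterns the branching airway and is made by lung mesenchyme and endothelium, fell in both genotypes at days 1 and 4 and did not differ from control past the threshold at day 10 in either. In Rag-1 null lung it read 7.47, 7.93 and 7.70 in controls, 6.87, 6.45 and 6.63 at day 1, 6.42, 6.12 and 5.75 at day 4, and 7.57, 7.23 and 7.21 at day 10. Wild type lung read 7.89, 7.52 and 7.29 in controls, 6.83, 6.84 and 6.95 at day 1, 6.63, 6.80 and 6.39 at day 4, and 7.52, 7.63 and 7.38 at day 10. The day 1 and day 4 arrays lay below every control of their genotype, and the day 10 arrays overlapped them. The differences from control were -1.05 ± 0.18 (adjusted p = 0.000222) and -1.61 ± 0.18 (adjusted p = 6.11e-07) in Rag-1 null lung at days 1 and 4. They were -0.70 ± 0.18 (adjusted p = 0.00395) and -0.96 ± 0.18 (adjusted p = 0.000575) in wild type lung. At day 10 they were -0.36 ± 0.18 in Rag-1 null lung (adjusted p = 0.287) and -0.06 ± 0.18 in wild type lung (adjusted p = 0.93). No genotype difference of Bmp4 passed at any of the 4 conditions, and at day 10 the 95% interval of the Rag-1 null minus wild type difference ran from -0.55 to 0.21.

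Acvrl1, the type I receptor of endothelium, fell after LPS on all 3 days in Rag-1 null lung and at days 1 and 4 in wild type lung. Its Rag-1 null levels were 6.84, 7.11 and 7.36 in controls, 6.46, 6.33 and 6.46 at day 1, 5.76, 5.87 and 6.18 at day 4, and 5.73, 5.95 and 6.09 at day 10. Its wild type levels were 6.93, 7.11 and 7.04 in controls, 5.40, 5.41 and 6.10 at day 1, 6.33, 6.399 and 5.90 at day 4, and 6.77, 6.67 and 6.87 at day 10. All LPS arrays lay below the controls of their genotype, the lowest wild type values at day 1 and the lowest Rag-1 null values at days 4 and 10. From control, Rag-1 null lung differed by -0.69 ± 0.18 at day 1 (adjusted p = 0.011), -1.17 ± 0.18 at day 4 (adjusted p = 4.31e-05) and -1.18 ± 0.18 at day 10 (adjusted p = 0.000157). Without day 1 replicate 2 or control replicate 3 the day 1 call was lost (adjusted p = 0.053 and 0.0768). Wild type lung differed by -1.39 ± 0.18 at day 1 (adjusted p = 3.19e-06) and -0.82 ± 0.18 at day 4 (adjusted p = 0.00262), and at day 10 by -0.26 ± 0.18 (adjusted p = 0.55). Without replicate 1 of wild type day 1 that fall was -1.27 (adjusted p = 1.15e-05). Rag-1 null lung exceeded wild type lung by 0.78 ± 0.18 at day 1 (adjusted p = 0.0036) and lay below it by a difference of -0.85 ± 0.18 at day 10 (adjusted p = 0.00626), with no overlap on either day. The difference in the LPS response passed on neither day taken alone, at 0.70 ± 0.26 for day 1 (adjusted p = 0.106) and -0.92 ± 0.26 for day 10 (adjusted p = 0.0758). It did pass over the 3 days together (F test in limma, adjusted p = 0.00125).

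Bmpr2, the type II receptor, gave a dim probe that was above background on 13 of the 24 arrays and on none of the 6 Rag-1 null arrays of days 4 and 10. Its level was 4.32 to 5.11 over the Rag-1 null arrays and 4.47 to 5.17 over the wild type arrays. No LPS group differed from its control past the threshold, the differences lying between -0.42 ± 0.16 (Rag-1 null, day 10, adjusted p = 0.111) and 0.15 ± 0.16 (wild type, day 1, adjusted p = 0.492). Bmpr2 in wild type lung was lower at day 4 than at day 1 by a difference of -0.47 ± 0.16 (adjusted p = 0.024), and this was lost without day 1 replicate 1, day 4 replicate 2 or day 4 replicate 3 (adjusted p = 0.0755, 0.0787 and 0.0547). Its signal was close to background throughout, which limits these differences.

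Smad6, the inhibitory SMAD that holds back BMP receptors and is itself a BMP target, had the deepest fall of the set at days 4 and 10 in Rag-1 null lung beside Tmem100. In Rag-1 null lung it read 8.44, 8.49 and 8.61 in controls, 8.03, 7.61 and 7.68 at day 1, 6.45, 6.18 and 6.32 at day 4, and 6.81, 6.43 and 6.50 at day 10. Wild type lung read 7.501, 8.33 and 7.87 in controls, 6.60, 8.26 and 7.92 at day 1, 6.53, 7.25 and 6.57 at day 4, and 7.55, 7.68 and 7.66 at day 10. The 3 Rag-1 null groups after LPS all lay below their controls, and in wild type lung the day 4 arrays did. The Rag-1 null differences from control were -0.74 ± 0.29 at day 1 (adjusted p = 0.0823), -2.20 ± 0.29 at day 4 (adjusted p = 4.24e-06) and -1.93 ± 0.29 at day 10 (adjusted p = 8.81e-05). The wild type differences were -0.31 ± 0.29 at day 1 (adjusted p = 0.427), -1.11 ± 0.29 at day 4 (adjusted p = 0.00707) and -0.27 ± 0.29 at day 10 (adjusted p = 0.719). The wild type day 1 arrays spread widely because replicate 1 was low. Without it, the Rag-1 null fall at day 1 also passed (adjusted p = 0.00596) at an unchanged -0.74, and the day 1 response was lower in Rag-1 null lung by a difference of -0.93 (adjusted p = 0.027), against -0.43 with it (adjusted p = 0.584).

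At day 10 Smad6 was lower in Rag-1 null lung than in wild type lung by a difference of -1.05 ± 0.29 (adjusted p = 0.031), without overlap. Its LPS response differed by -1.67 ± 0.41 (adjusted p = 0.0388), and by -1.68, -1.42 and -1.89 on the 3 slides. Both calls sat near the threshold. Leaving out any 1 of the 6 compared arrays ended the first of them (Rag-1 null replicates 1 to 3, adjusted p = 0.0522, 0.139 and 0.0805, and wild type replicates 1 to 3, adjusted p = 0.0753, 0.107 and 0.103). The second was lost without any of 13 of the 24 arrays, with adjusted p from 0.00145 to 0.104. In controls Smad6 was 0.61 ± 0.29 higher in Rag-1 null lung with no overlap, which did not pass (adjusted p = 0.363).

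Tmem100, a membrane protein that mouse endothelium makes downstream of Acvrl1, fell on every day in Rag-1 null lung and at days 1 and 4 in wild type lung. Its Rag-1 null levels were 11.04, 11.18 and 10.90 in controls, 9.96, 9.81 and 9.84 at day 1, 8.94, 9.12 and 8.44 at day 4, and 9.10, 9.07 and 9.003 at day 10. Its wild type levels were 10.50, 11.03 and 10.79 in controls, 9.79, 8.96 and 8.71 at day 1, 9.25, 9.72 and 9.14 at day 4, and 10.59, 10.71 and 10.77 at day 10. At day 10 every Rag-1 null array lay below every wild type array. Against control, Rag-1 null lung differed by -1.17 ± 0.22 at day 1 (adjusted p = 0.000481), -2.21 ± 0.22 at day 4 (adjusted p = 9.35e-08) and -1.98 ± 0.22 at day 10 (adjusted p = 2.84e-06), the day 10 value being a 3.95-fold lower signal. Wild type lung differed by -1.62 ± 0.22 at day 1 (adjusted p = 3.74e-06) and -1.40 ± 0.22 at day 4 (adjusted p = 7.21e-05). The wild type fall at day 1 was -1.94 without replicate 1 (adjusted p = 2e-08). At day 10 the wild type difference was -0.08 ± 0.22, with a 95% interval of -0.53 to 0.37.

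Between genotypes Tmem100 was 0.72 ± 0.22 higher in Rag-1 null lung at day 1 (adjusted p = 0.019) and lower at day 10, by a difference of -1.63 ± 0.22 (adjusted p = 7.46e-05). The day 1 call did not hold without Rag-1 null replicate 1, wild type replicate 2 or wild type replicate 3 (adjusted p = 0.0644, 0.064 and 0.118). Without wild type replicate 1 it became 1.03 (adjusted p = 0.000156). The LPS response at day 10 differed by -1.90 ± 0.31 (adjusted p = 0.00296), and by -2.02, -1.78 and -1.89 on the 3 slides.

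Id1 and Id3, inhibitors of basic helix-loop-helix transcription factors and direct BMP targets, were lower at day 4 in both genotypes. Id1 in Rag-1 null lung read 8.03, 8.46 and 8.27 in controls, 8.42, 8.23 and 8.39 at day 1, 7.13, 7.82 and 7.51 at day 4, and 7.60, 7.46 and 7.60 at day 10. In wild type lung Id1 read 7.85, 8.05 and 8.90 in controls, 8.34, 8.56 and 8.53 at day 1, 7.81, 7.79 and 7.32 at day 4, and 7.67, 7.68 and 7.98 at day 10. Day 1 overlapped control in both genotypes, and wild type control replicate 3 was the highest array of all. The Id1 difference from control was -0.77 ± 0.21 at day 4 (adjusted p = 0.00895) and -0.70 ± 0.21 at day 10 (adjusted p = 0.0405) in Rag-1 null lung. For wild type lung it was -0.63 ± 0.21 at day 4 (adjusted p = 0.0357) and -0.49 ± 0.21 at day 10 (adjusted p = 0.245). These Id1 calls were fragile. The Rag-1 null one of day 4 was lost without day 4 replicate 1 or control replicate 2 (adjusted p = 0.0616 and 0.0521), and that of day 10 without any of 8 of the 24 arrays (adjusted p from 0.00913 to 0.187). The wild type one was lost without day 4 replicate 1, day 4 replicate 3 or control replicate 3 (adjusted p = 0.05, 0.161 and 0.267, the difference without that control being -0.31). No genotype difference of Id1 passed, and at day 10 its 95% interval ran from -0.66 to 0.22.

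Id3 in Rag-1 null lung read 7.89, 8.05 and 7.59 in controls, 7.76, 7.73 and 7.58 at day 1, 7.11, 7.29 and 7.07 at day 4, and 7.79, 7.55 and 7.36 at day 10. In wild type lung Id3 read 7.68, 7.79 and 7.85 in controls, 8.07, 7.80 and 7.80 at day 1, 7.53, 7.37 and 7.14 at day 4, and 8.06, 8.08 and 8.08 at day 10. At day 10 the wild type arrays lay above their controls and the Rag-1 null arrays overlapped theirs, and neither difference passed (-0.28 ± 0.14 in Rag-1 null lung, adjusted p = 0.284, and 0.30 ± 0.14 in wild type lung, adjusted p = 0.282). Id3 differed from control at day 4 by -0.69 ± 0.14 in Rag-1 null lung (adjusted p = 0.000685) and by -0.42 ± 0.14 in wild type lung (adjusted p = 0.032). The wild type call was lost without day 4 replicate 2 or 3 or control replicate 2 or 3 (adjusted p = 0.061, 0.145, 0.0755 and 0.0962). At day 10 Id3 was lower in Rag-1 null lung than in wild type lung by a difference of -0.51 ± 0.14 (adjusted p = 0.0329), which did not hold without Rag-1 null replicate 2 or 3 or any wild type replicate (adjusted p = 0.115, 0.143, 0.0928, 0.103 and 0.105).

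Id2, the family member that is abundant in innate lymphocytes and myeloid cells as well as in epithelium, went the other way and rose after LPS. The rise passed at day 4 for Rag-1 null lung and on all 3 days for wild type lung. Rag-1 null lung read 8.20, 7.84 and 8.19 in controls, 8.24, 8.55 and 9.18 at day 1, 8.46, 8.87 and 9.21 at day 4, and 8.49, 8.75 and 8.87 at day 10. Wild type lung read 7.44, 7.05 and 7.33 in controls, 8.39, 8.67 and 9.35 at day 1, 7.97, 8.05 and 8.69 at day 4, and 8.501, 8.17 and 8.32 at day 10. Every LPS array of either genotype lay above all its controls, and the Rag-1 null controls lay above the wild type controls. From control, Id2 differed by 0.58 ± 0.25 at day 1 (adjusted p = 0.126), 0.77 ± 0.25 at day 4 (adjusted p = 0.0248) and 0.63 ± 0.25 at day 10 (adjusted p = 0.145) in Rag-1 null lung. In wild type lung it differed by 1.53 ± 0.25 at day 1 (adjusted p = 4.58e-05), 0.96 ± 0.25 at day 4 (adjusted p = 0.00771) and 1.06 ± 0.25 at day 10 (adjusted p = 0.0296). Id2 was the only gene of the 9 past the threshold in wild type lung at day 10.

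Id2 also varied with the slide, which carries 1 array of each group. With the slide as a block its Rag-1 null rises passed at day 1 (adjusted p = 0.0452) and day 10 (adjusted p = 0.048), as did the higher Rag-1 null control level (0.80 ± 0.25, adjusted p = 0.139 without the block and 0.0437 with it). The smaller day 1 rise in Rag-1 null lung, a difference in response of -0.95 ± 0.36, likewise passed with the block (adjusted p = 0.0379) and not without it (adjusted p = 0.109). It also passed without wild type day 1 replicate 1 (-1.15, adjusted p = 0.0246). On the 3 slides that difference was -0.92, -0.91 and -1.02. Id2 calls lost without 1 array were those of Rag-1 null lung at day 4 (without day 4 replicate 2 or 3 or control replicate 2, adjusted p = 0.0668, 0.145 and 0.111), of wild type lung at day 4 (without day 4 replicate 3, adjusted p = 0.0549) and of wild type lung at day 10 (without any day 10 replicate, adjusted p = 0.131, 0.0602 and 0.102, or control replicate 2 or 3, adjusted p = 0.102 and 0.0623).

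**Figure D2:**
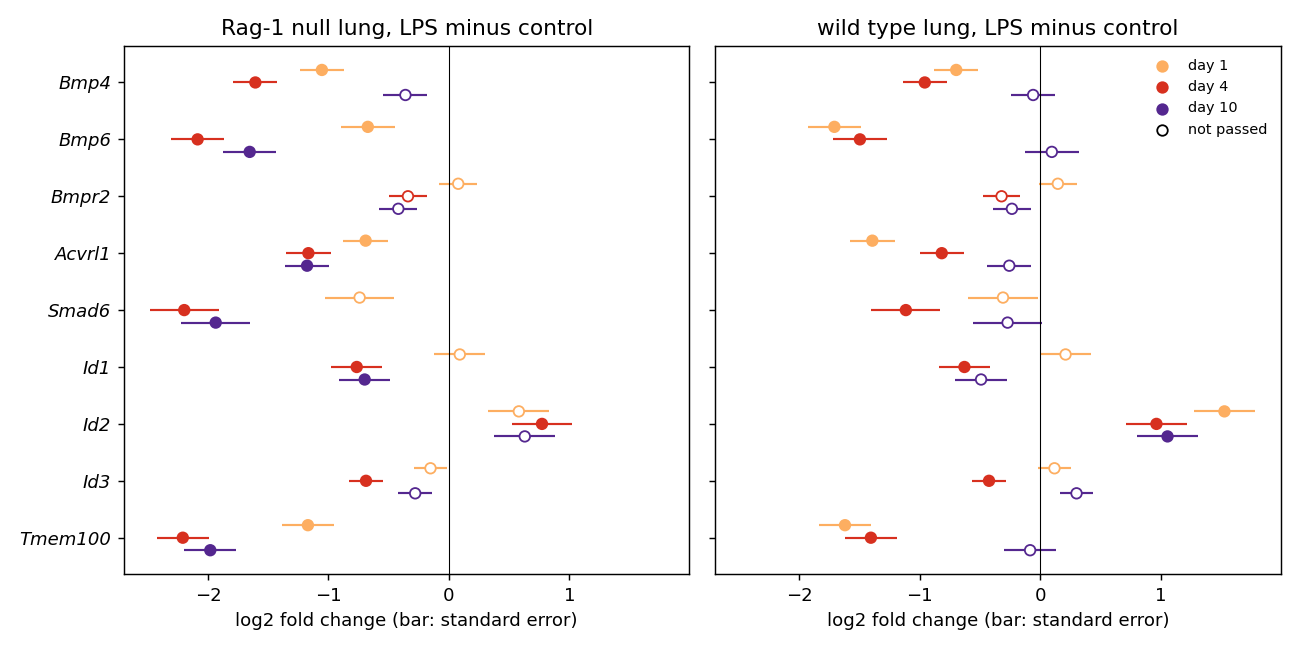
Difference between LPS and control lung (x axis, log2 fold change) for each of the 9 genes (y axis), with Rag-1 null lung in the left panel, wild type lung in the right panel, colours for day 1, 4 and 10 and bars of 1 standard error. Filled points passed at an adjusted p under 0.05 and open points did not. At day 10 the 5 filled points of Rag-1 null lung all lie below 0, and the filled point of wild type lung is Id2, above 0.

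Between the genotypes, Bmp6, Acvrl1 and Tmem100 were higher in Rag-1 null lung at day 1 and lower at day 10, while Bmp4, Bmpr2, Id1 and Id3 had negative differences on both days, of which that of Id3 at day 10 passed. At day 1, 3 of the 9 genes were higher in Rag-1 null lung and 0 lower (13% of all probes were higher and 11.4% lower). At day 10, 5 were lower and 0 higher (2.55% of all probes lower and 2.97% higher), namely Tmem100, Bmp6, Smad6, Acvrl1 and Id3. In controls 0 of the 9 passed in limma (1.28% of all probes passed), with 2 at an unadjusted p under 0.05, and at day 4 also 0 (0.539% of all probes passed), with 3 at an unadjusted p under 0.05. For the LPS response itself, 1 of the 9 genes, Bmp6, had a higher (less negative) response in Rag-1 null lung at day 1 and 0 a lower one (4.19% of all probes higher and 4.02% lower), 0 differed at day 4 (0% of all probes, with 3 of the 9 at an unadjusted p under 0.05) and 3 at day 10, all with the lower response in Rag-1 null lung (0.746% of all probes lower and 0.775% higher). Over the 3 days together 4 of the 9 passed (15.6% of all probes), with adjusted p of 2.97e-05 for Bmp6, 9.19e-05 for Tmem100, 0.00125 for Acvrl1 and 0.0252 for Smad6. Without replicate 1 of wild type day 1, the day 1 difference in response passed for 4 of the 9 genes in place of 1. It was then higher in Rag-1 null lung for Bmp6 (1.09, adjusted p = 0.0225) and Tmem100 (0.77, adjusted p = 0.0337, against 0.45 ± 0.31 and 0.425 with that array), and lower for Smad6 (-0.93, adjusted p = 0.027) and Id2 (-1.15, adjusted p = 0.0246). Acvrl1 did not pass either way (0.58, adjusted p = 0.128). The 3 genotype differences at day 1 held without it, at 1.35 for Bmp6 (adjusted p = 0.000182), 0.66 for Acvrl1 (adjusted p = 0.0115) and 1.03 for Tmem100. The wild type day 1 changes from control held as well, at -0.68 for Bmp4 (adjusted p = 0.00747), -1.77 for Bmp6 (adjusted p = 3.17e-06) and 1.74 for Id2 (adjusted p = 9.69e-06), beside those of Acvrl1 and Tmem100 given above. The comparisons within a genotype share its 3 controls, so their values for a gene are not independent of each other.

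**Figure D3:**
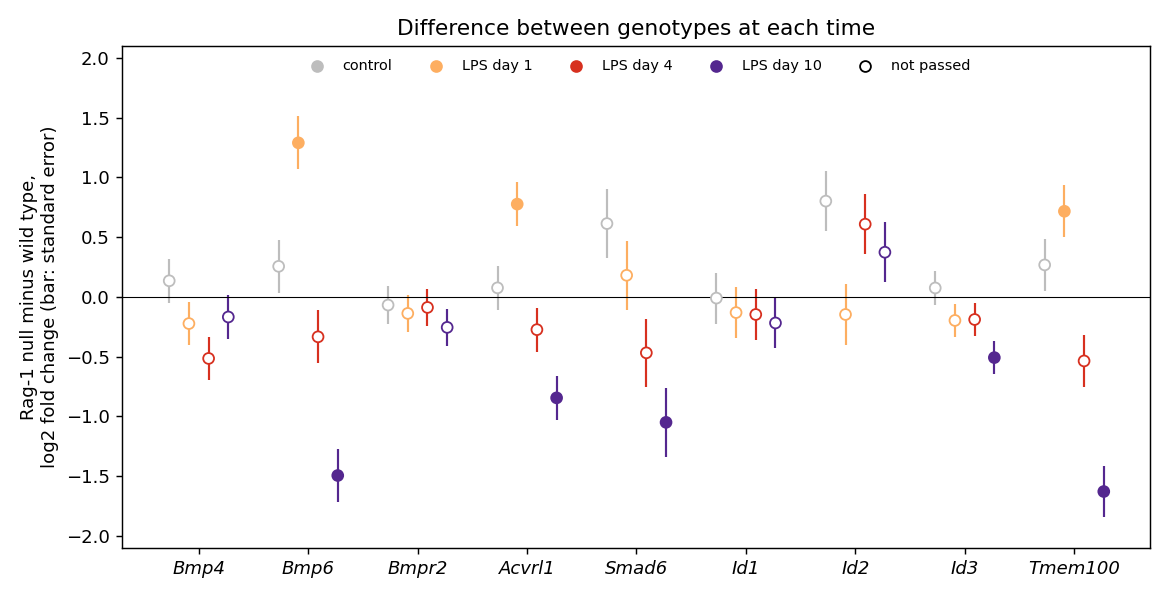
Rag-1 null minus wild type difference (y axis, log2) of each of the 9 genes (x axis) in control lung and at day 1, 4 and 10 after LPS, with bars of 1 standard error. Filled points passed at an adjusted p under 0.05 and open points did not. Bmp6, Acvrl1 and Tmem100 lie above 0 at day 1 and below 0 at day 10.

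Between the days after LPS, Rag-1 null lung had 1 of the 9 genes higher at day 10 than at day 4 (4.75% of all probes were higher and 4.9% lower), Bmp4, by 1.24 ± 0.18 (adjusted p = 9.44e-05). Id3 gained 0.41 ± 0.14 there (adjusted p = 0.0717, and 0.0486 with the slide as a block). Wild type lung had 5 of the 9 higher over that interval (8% of all probes were higher and 6.96% lower), with differences of 1.59 ± 0.22 for Bmp6 (adjusted p = 3.61e-05), 1.32 ± 0.22 for Tmem100 (adjusted p = 0.000221), 0.90 ± 0.18 for Bmp4 (adjusted p = 0.00155), 0.73 ± 0.14 for Id3 (adjusted p = 0.00105) and 0.56 ± 0.18 for Acvrl1 (adjusted p = 0.0431). That of Acvrl1 was lost when any of 13 of the 24 arrays was left out (adjusted p from 0.0195 to 0.196 over the 24 fits). Smad6 gained 0.84 ± 0.29, just outside the threshold (adjusted p = 0.0508) and inside it with the slide as a block (adjusted p = 0.0475). From day 1 to day 4, 5 of the 9 genes were lower in Rag-1 null lung (3.42% of all probes were lower and 4.23% higher), led by Smad6 at -1.46 ± 0.29 (adjusted p = 0.00217) and Bmp6 at -1.41 ± 0.22 (adjusted p = 0.000252). Bmp4 there was at -0.55 ± 0.18, outside the threshold (adjusted p = 0.0674) and inside it with the slide as a block (adjusted p = 0.0479) or without wild type day 1 replicate 1 (adjusted p = 0.0422). The Rag-1 null call of Id1 (-0.86 ± 0.21, adjusted p = 0.0135) was lost without day 1 replicate 1 or 3 or day 4 replicate 1 (adjusted p = 0.0587, 0.0526 and 0.0792). That of Id3 (-0.54 ± 0.14, adjusted p = 0.0196) was lost without day 1 replicate 1 or 2 or day 4 replicate 1 or 3 (adjusted p = 0.0832, 0.0748, 0.0564 and 0.0899). In wild type lung 4 were lower and 1 higher between those days (16.7% of all probes lower and 18.1% higher), the higher one being Acvrl1 at 0.58 ± 0.18 (adjusted p = 0.0184), a call lost without day 1 replicate 1 or 2 or day 4 replicate 1 or 2 (adjusted p = 0.0641, 0.0731, 0.0661 and 0.0866). The fall of Smad6 between days 1 and 4 in wild type lung (-0.81 ± 0.29, adjusted p = 0.0328) was lost without day 1 replicate 2 or 3 or day 4 replicate 1 or 3 (adjusted p = 0.195, 0.129, 0.118 and 0.112) and was -1.30 without day 1 replicate 1 (adjusted p = 4.21e-05). Id2 in wild type lung was at -0.56 ± 0.25 (adjusted p = 0.0872), and passed with the slide as a block (adjusted p = 0.0293) or without day 1 replicate 1 (-0.77, adjusted p = 0.0213). Without that array Tmem100 passed too, at 0.53 (adjusted p = 0.0234), against 0.21 ± 0.22 with it (adjusted p = 0.473). Id1 and Id3 kept their calls without it, at -0.91 (adjusted p = 0.00327) and -0.45 (adjusted p = 0.016).

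Around the 9 genes, 53 further genes of BMP and transforming growth factor beta signalling had a tested probe, and they moved in both directions. Of these, 6 rose and 14 fell at day 1, 6 rose and 24 fell at day 4, and 4 rose and 8 fell at day 10 in Rag-1 null lung. Among wild type groups, 13 rose and 11 fell at day 1, 8 rose and 11 fell at day 4, and 1 rose and 0 fell at day 10. Of all probes tested in Rag-1 null lung, 7.75% rose and 9.13% fell at day 1, and 11.9% and 15.4% at day 4. At day 10 these shares were 4.64% and 4.24%. In wild type lung they were 18.1% and 21.2% at day 1, 10.7% and 12.6% at day 4, and 0.945% and 1.11% at day 10. The counts of these genes and of the lists below were not tested against these shares. Among 9 other BMP receptors and co-receptors, 4, 5 and 3 fell in Rag-1 null lung at days 1, 4 and 10 and 0 rose. Acvr2b, an activin type II receptor, fell, with differences of -0.96 ± 0.17, -1.29 ± 0.17 and -0.85 ± 0.17 on these days (adjusted p = 0.000345, 5.49e-06 and 0.00199). Eng, the endothelial co-receptor endoglin, fell, with differences of -1.26 ± 0.20 at day 4 (adjusted p = 5.15e-05) and -1.06 ± 0.20 at day 10 (adjusted p = 0.00113). Wild type lung had 3 of the 9 fallen at day 1 and 3 at day 4, Eng with a difference of -0.98 ± 0.20 at day 4 (adjusted p = 0.00122), and 0 passed at day 10.

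Of 10 other BMP target genes, 1, 7 and 3 fell in Rag-1 null lung at days 1, 4 and 10 with 0 rising, and 1, 2 and 0 fell in wild type lung, with 2 rising at day 1. Hey1, a Notch and BMP target of endothelium, read 8.51, 9.11 and 8.76 in Rag-1 null controls, and 6.84, 7.06 and 7.56 at day 10. Wild type Hey1 read 8.62, 8.28 and 8.79 in controls and 8.56, 8.39 and 8.64 at day 10. Its day 10 arrays thus lay below every control in Rag-1 null lung (-1.64 ± 0.32, adjusted p = 0.00127) and among the controls in wild type lung (-0.04 ± 0.32, adjusted p = 0.977). The difference in response at day 10 was -1.61 ± 0.45 and did not pass (adjusted p = 0.0705), while the direct genotype difference of -1.38 ± 0.32 did (adjusted p = 0.00932). Gata2, a transcription factor of endothelium and blood progenitors, differed from control by -1.41 ± 0.18 in Rag-1 null lung at day 10 (adjusted p = 1.89e-05) and by -0.41 ± 0.18 in wild type lung (adjusted p = 0.251). The 2 that rose in wild type lung at day 1 were Hamp, hepcidin (3.00 ± 0.50, adjusted p = 4.92e-05), and the homeobox gene Msx2 (0.37 ± 0.13, adjusted p = 0.0329), each above background on 1 of the 3 wild type controls. In Rag-1 null lung Hamp differed from control by -1.39 ± 0.50 at day 1 (adjusted p = 0.0582), and its response was below that of wild type lung by a difference of -4.38 ± 0.70 (adjusted p = 0.000473).

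Ligands, signalling SMADs, and antagonists and modulators moved in both directions. Of 2 other ligands, Bmp3 fell in Rag-1 null lung at day 1 (-1.19 ± 0.26, adjusted p = 0.00218) and day 4 (-1.54 ± 0.26, adjusted p = 9.08e-05) and in wild type lung at day 1 (-0.76 ± 0.26, adjusted p = 0.0242) and day 4 (-0.93 ± 0.26, adjusted p = 0.0122). Bmp5 fell in Rag-1 null lung at days 1 and 4 (-0.55 ± 0.13 and -0.52 ± 0.13, adjusted p = 0.00363 and 0.00326) and rose in wild type lung at day 10 (0.65 ± 0.13, adjusted p = 0.0124), from a wild type control level above background on 1 of 3 arrays. Among the 3 measured signalling SMADs, Smad1 rose in wild type lung at day 1 (1.14 ± 0.20, adjusted p = 0.000109), and Smad5 fell at day 4, with differences of -0.72 ± 0.14 in Rag-1 null lung (adjusted p = 0.000317) and -0.40 ± 0.14 in wild type lung (adjusted p = 0.0376). Of 11 antagonists and modulators, the activin and BMP antagonist Fst rose to a difference of 2.59 ± 0.28 in Rag-1 null lung at day 4 (adjusted p = 2.94e-07) and 1.37 ± 0.28 in wild type lung (adjusted p = 0.00108). Twsg1, which binds BMPs outside the cell, fell on all 3 days in Rag-1 null lung (-0.93 ± 0.14, -1.20 ± 0.14 and -0.68 ± 0.14, adjusted p = 6.55e-05, 1.36e-06 and 0.00281).

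In the transforming growth factor beta arm, 4 of 18 measured genes rose and 1 fell in Rag-1 null lung at day 10, against 0 in either direction in wild type lung. Tgfbi, a matrix protein induced by transforming growth factor beta, was 2.02 ± 0.16 above control in Rag-1 null lung at day 10 (adjusted p = 4.08e-08). Lrg1, a secreted glycoprotein that modifies this signalling in endothelium, was 2.02 ± 0.22 above control there (adjusted p = 2.15e-06). Ltbp4, which binds the latent growth factor in the matrix, was below control by -1.31 ± 0.20 (adjusted p = 9.74e-05). The difference in response at day 10 passed for all 3, at 1.62 ± 0.23 for Tgfbi (adjusted p = 0.00131), 1.27 ± 0.31 for Lrg1 (adjusted p = 0.0373) and -1.26 ± 0.28 for Ltbp4 (adjusted p = 0.0254). It also passed for the co-receptor Rgma (-1.20 ± 0.24, adjusted p = 0.0146) and for Bmp5 (-0.90 ± 0.18, adjusted p = 0.0136), and for none of the other 48.

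**Figure D4:**
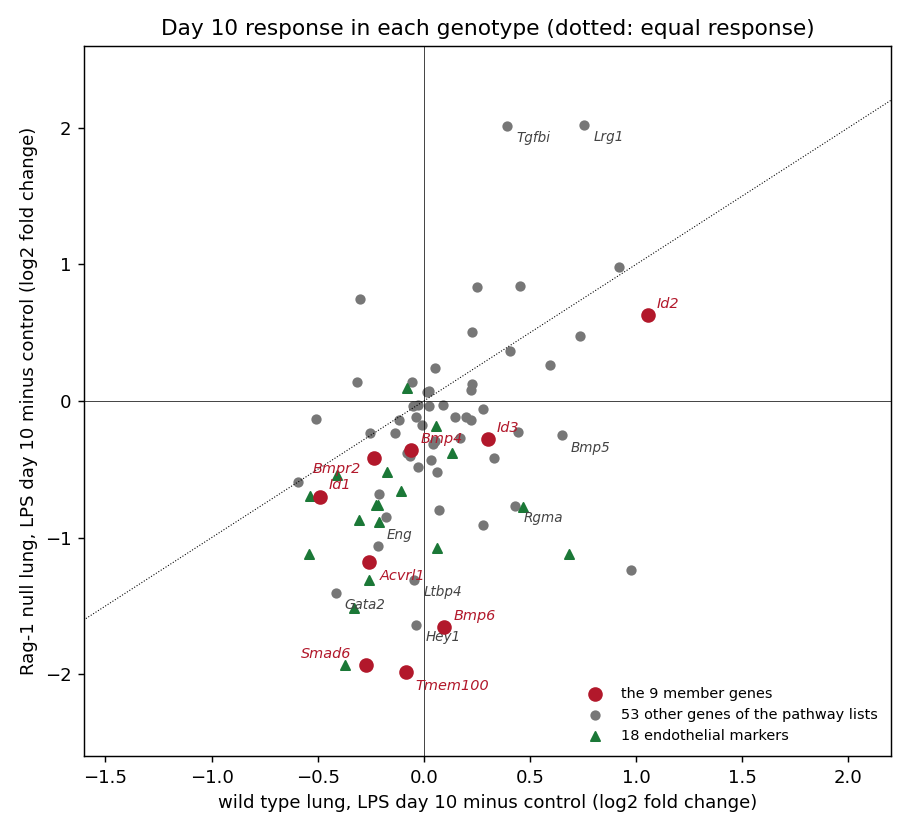
LPS minus control difference at day 10 (log2 fold change) in wild type lung (x axis) and Rag-1 null lung (y axis), 1 point a gene. Large points are the 9 genes of the set, small points 53 further pathway genes and triangles 18 endothelial markers, and the dotted line marks equal responses. Tmem100, Smad6, Bmp6 and Acvrl1 lie near 0 on the x axis and below -1 on the y axis, among many endothelial markers.

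Endothelial markers also changed after LPS. Of 20 listed, 18 had a tested probe, and in Rag-1 null lung 2, 17 and 11 of them fell at days 1, 4 and 10 with 0 rising, while in wild type lung 14, 7 and 0 fell, with 1 rising at day 1. Their mean level per array was 8.63 to 8.90 in Rag-1 null controls, 8.302 to 8.504 at day 1, 7.53 to 7.82 at day 4 and 7.88 to 7.97 at day 10. The wild type range was 8.63 to 8.76 in controls, 7.61 to 7.87 at day 1, 8.00 to 8.17 at day 4 and 8.52 to 8.67 at day 10. At day 10, 7 of the 18 were lower in Rag-1 null lung than in wild type lung and 0 higher, and at day 1, 9 were higher and 1 lower. No more than 2 of the 18 markers were below background on every array of a group. In wild type lung at day 1, where 14 markers fell, Bmp4, Bmp6, Acvrl1 and Tmem100 fell past the threshold. Bmpr2, Smad6, Id1 and Id3 did not, and Id2 rose. Bmp4, Bmp6, Acvrl1 and Tmem100 also fell in Rag-1 null lung at day 1. There 2 markers fell past the threshold, and the marker mean of every array lay below all controls (8.302 to 8.504 against 8.63 to 8.90). The part of these markers in the results for Bmp6, Acvrl1, Smad6 and Tmem100 was not tested.

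Other cell types also differed between the groups. All 11 measured macrophage markers were above control in Rag-1 null lung at day 10 and 4 of 11 in wild type lung, with mean levels per array of 8.07 to 8.26 in Rag-1 null lung and 6.94 to 7.09 in wild type lung. All 7 measured proliferation genes were above control in Rag-1 null lung at day 10 and 0 of 7 in wild type lung. Of 7 alveolar type 1 markers, 2, 4 and 4 fell in Rag-1 null lung at days 1, 4 and 10 and 5, 2 and 0 in wild type lung, with 1 rising in Rag-1 null lung at day 1. Of 12 alveolar type 2 markers, 8, 9 and 0 fell in Rag-1 null lung on these days and 9, 2 and 0 in wild type lung, with 1 rising in wild type lung at day 4 and 1 at day 10. Of 6 airway markers, 3, 2 and 2 fell in Rag-1 null lung and 3, 2 and 0 in wild type lung, and 0 rose. Of 15 mesenchymal markers, 2, 4 and 0 fell and 0, 1 and 2 rose in Rag-1 null lung, and 4, 2 and 0 fell and 0, 4 and 4 rose in wild type lung. At day 4, 10 of the 11 macrophage markers and 7 of the 7 proliferation genes were above control in each genotype. At day 1, 6 macrophage markers were above control in Rag-1 null lung and 4 in wild type lung, and 0 proliferation genes in either. Heart muscle markers had mean levels per array of 6.922 to 8.565 in Rag-1 null controls and 6.329 to 7.855 at day 10. In wild type lung they were 5.576 to 8.458 in controls and 7.767 to 8.666 at day 10. Neutrophil markers ran from 6.155 to 8.302 over the wild type controls and from 6.351 to 6.545 over the Rag-1 null controls. The wild type controls were thus uneven for both lists. The part of these cell types in the results was not tested.

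The genes whose levels ran most nearly parallel to the 9 over the 24 arrays were named by Pearson correlation among 9477 genes, as a description without a test, since arrays share groups, slides and normalisation. Bmp6 was closest to Tspan18 (r = 0.957), Emp2 (0.931) and Ehd4 (0.927). Tmem100 was closest to Ehd4 (0.955), Acer2 (0.944) and Ptprb (0.941). For Acvrl1 the nearest were Bmp6 (0.911), Egfl7 (0.901) and Tspan18 (0.901), and for Smad6 Csnk1e (0.904), Cdh5 (0.901) and Eng (0.894), of which Egfl7 and Cdh5 are on the endothelial marker list. Bmp4 lay nearest to Aplp2 (0.915), Etl4 (0.91) and Timp2 (0.904). The Id genes had weaker nearest neighbours, Caskin2 (0.85), Robo4 (0.83) and Klf7 (0.827) for Id1, Mapk13 (0.861), Smim3 (0.841) and Rbm47 (0.836) for Id2, and Ctnna1 (0.861), Ppp1r2 (0.835) and Bmpr1a (0.831) for Id3. Bmpr2, dim throughout, reached 0.802 with Rgs12, 0.791 with Rapgef3 and 0.791 with Timp3. Within the set, Bmp6 and Tmem100 correlated at 0.912 and Acvrl1 and Tmem100 at 0.838, while Id2 correlated negatively with each of the other 8, from -0.712 with Tmem100 to -0.212 with Id1.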

How the data were processed

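Whole-lung RNA of 24 samples was measured on Illumina mouse beadchips. Per the labels' protocols, RNA was isolated with TRIzol and RNeasy columns, and the Ambion MessageAmp system gave biotinylated cRNA. The authors deposited bead intensities per probe that were not background-corrected or normalised, and beside each of them a detection score, a fraction that was turned into a detection p by subtracting it from 1. The deposited value table holds the authors' log2 values for 13029 probes, with column medians of -0.546 to -0.371. Within 0.00054 they equal the log2 of the deposited intensities minus each array's mean over these probes. They thus carry no background correction or quantile normalisation. The table served as an alternative and as the link between arrays and samples. Arrays were tied to samples because each array's values matched 1 sample of that table within 0.00054, against 1.419 or more for any other; the title line of the deposited files names another sample for 22 of the 24 arrays.

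Intensities were background-corrected, quantile-normalised and log2-transformed with neqc in limma 3.58.1 (R 4.3.3; offset 16, which shrinks differences of dim probes). Probes with a detection p under 0.05 on at least 3 arrays were tested (13544 of 24046, of which 1886 carry no gene name here). One model over the 8 groups was fitted with limma and p-values were adjusted by Benjamini-Hochberg over all probes tested. Each listed gene was taken by its brightest probe, and of every list up to 4 genes with the smallest adjusted p in each LPS comparison could be named. The members and gene lists were chosen with earlier results of these data known. The steps were tested on simulated data.

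Replicate number equals slide. Same-numbered arrays of different groups correlated, in their deviations from the group means, at 0.048 on average, against -0.023 for other pairs, and in 1 of 14 comparisons every pair exceeded 0.1, so the fit without a block is reported. Alternatives were the slide as a block, other background corrections and normalisations, no or a stricter detection filter, the value table, the compared arrays alone and leaving out each array. Smad7 was not analysed here, and protein sequences were not used.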

Additional observations from a re-analysis of the deposited data

Results flagged for a closer look

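The response to LPS differed between Rag-1 null and wild type lung, by the test of the difference itself (limma, Benjamini-Hochberg), for Bmp6 at day 1 (1.034 on the log2 scale, adjusted p = 0.0444) and for 3 genes at day 10, Tmem100 (-1.897, adjusted p = 0.00296), Bmp6 (-1.75, adjusted p = 0.00712) and Smad6 (-1.665, adjusted p = 0.0388). The Bmp6 call at day 1 was lost without any of 16 of the 24 arrays, and the Smad6 call without any of 13. Over the 3 days together the difference passed for Bmp6 (adjusted p = 2.97e-05), Tmem100 (9.19e-05), Acvrl1 (0.00125) and Smad6 (0.0252). Endothelial markers differed between the same groups, and their part in these results was not tested. Id3 at day 10, with arrays paired by slide, differed from control by -0.102, -0.503 and -0.236 in Rag-1 null lung and by 0.383, 0.291 and 0.234 in wild type lung, of opposite sign on each slide. Neither genotype's difference passed (adjusted p = 0.284 in Rag-1 null lung and 0.282 in wild type lung), nor did the test of the difference in response, -0.583 (adjusted p = 0.142), and same-numbered arrays hardly deviated together.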

How the results depend on the processing

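Of 153 gene and comparison pairs (9 genes, 17 comparisons), 59 passed in the reported fit, and 36 of these passed under every alternative, 23 fell short under at least 1 and 0 changed direction. The authors' value table gave 3 genes for wild type lung at day 10 against control (1 as reported), 1 for Rag-1 null minus wild type controls (0 as reported), 3 for the difference in response at day 4 (0) and 5 at day 10 (3). In these comparisons it also called more of all probes. It called fewer of all probes for wild type day 1 against control (4747, 5316 as reported) and for the day 1 difference in response (790, 1112 as reported). The cause was not tested. For the day 1 difference in response (1 gene, Bmp6), 5 settings gave 0, namely the value table, dropping the background correction, testing all probes without a detection filter, cyclic loess and the compared arrays alone. The compared arrays alone gave 1 gene for the genotype difference in controls, 1 at day 1 (3 as reported) and 1 for wild type day 4 minus day 1 (5 as reported), with fewer samples in the fit. With the replicate block, which is the slide, controls gave 1 gene, Rag-1 null day 10 minus day 4 gave 2 (1 as reported) and the day 1 difference in response gave 2, and the block ended no call. Leaving out 1 array gave 2 to 5, 6 to 9 and 4 to 6 genes in Rag-1 null lung at days 1, 4 and 10 and 5 to 6, 5 to 8 and 0 to 1 in wild type lung. It gave 0 to 0, 2 to 3, 0 to 0 and 3 to 5 for the genotype difference in controls and at days 1, 4 and 10, and 0 to 4, 0 to 0 and 2 to 4 for the difference in response. From day 1 to 4 and from day 4 to 10 it gave 3 to 6 and 1 to 2 in Rag-1 null lung and 3 to 5 and 4 to 6 in wild type lung, and 3 to 4 for the 3 days together. Tmem100 between wild type days 1 and 4, which did not pass at 0.215, was -0.009 without day 1 replicate 3 and 0.534 without day 1 replicate 1. With 1 probe a gene, no second probe could be tried, and the test over the 3 days uses all arrays. Bmpr2 and the low groups of Bmp6 lie near background, which limits their differences.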
